A study of Mus musculus with 34 samples.

Results

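Tumor necrosis factor (TNF) acts on cells through 2 receptors, and the transcripts of these receptors and of the 8 proteins that assemble next to them were followed in hematopoietic stem cells (HSCs) with and without *Ythdf2*. The 10 genes were *Tnfrsf1a*, *Tnfrsf1b*, *Tradd*, *Traf1*, *Traf2*, *Ripk1*, *Fadd*, *Casp8*, *Birc2* and *Birc3*. They were chosen by name for their place in the pathway, with earlier results of these data known. All 10 were found among the 13108 gene rows of the count table. HSCs were sorted as LSK CD48-CD150+ cells from C57BL/6 mice carrying a floxed *Ythdf2* allele that also encodes a GFP fusion of the protein. In *Ythdf2* CKO mice *Vav-iCre*, which is active in hematopoietic cells from fetal life on, deletes the floxed exon 2, and *Ythdf2* CTL mice are *Ythdf2* fl/fl controls without the Cre, which the sample labels call wild type. The groups were 4 young *Ythdf2* CTL, 4 young *Ythdf2* CKO, 4 aged *Ythdf2* CTL and 5 aged *Ythdf2* CKO mice, where aged mice were 1 yr old, and no other treatment is given in the labels. Each mouse gave 2 libraries, A and B, of 100 cells, made by SMART-Seq2, which amplifies full-length cDNA from few cells. YTHDF2 binds mRNA that carries N6-methyladenosine (m6A) and promotes its decay.

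TNF binds a pair of receptors that differ inside the cell. TNFR1, the product of *Tnfrsf1a*, carries a death domain that recruits the adaptor TRADD and the kinase RIPK1. TRADD brings in TRAF2 and with it the ubiquitin ligases cIAP1 and cIAP2, the products of *Birc2* and *Birc3*, and the ubiquitin chains they build recruit the kinases that activate NF-κB. When that ubiquitylation is lost, RIPK1 joins FADD and caspase-8 in a cytosolic complex that can kill the cell. TNFR2, the product of *Tnfrsf1b*, has no death domain and binds TRAF2 directly, and TRAF1 pairs with TRAF2. In the bone marrow TNF is known as a signal that HSCs meet during inflammation and with age.

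The libraries used held between 1859784 and 7784627 counts. Library B of aged *Ythdf2* CTL mouse 99 held 187034 and was left out, so that mouse is represented by 1 library of 2218618 counts. Counts were summed over the libraries of each mouse, and levels are given as CPM, which are counts scaled to a common library size by TMM, where 3 counts correspond to between 0.292 and 1.24 CPM per mouse and this floor covers counting error only. *Ythdf2* itself was between 93.4 and 123 CPM in young *Ythdf2* CTL mice and between 50.3 and 60.3 CPM in young *Ythdf2* CKO mice, where the counts cover the whole gene and not the deleted exon alone, so they check the labels only in part. In aged mice the library pair labelled *Ythdf2* CKO 121 was at 188 CPM against 72.4 to 87.8 CPM in the other *Ythdf2* CKO mice, and the pair labelled *Ythdf2* CTL 124 was at 70.5 CPM against 142 to 179 CPM in the other *Ythdf2* CTL mice. These mice are called the mouse labelled CKO 121 and the mouse labelled CTL 124 below, and the tests that include aged mice were also run without them. Y-linked transcripts were found in 3 young *Ythdf2* CTL mice but in 1 mouse of each other group (1 further aged *Ythdf2* CTL mouse had 1 such count), so sex was not balanced. All 12 HSC markers were detected in every group, and their summed level was 1720 to 2171 CPM in young *Ythdf2* CTL and 2238 to 2749 CPM in young *Ythdf2* CKO mice. The higher sum was not shared by all 12, of which 6 had a positive log2 fold change, against 49.9% of all genes. Their median was 0.0065, with a range from -0.47 to 1.20. The summed level of 8 megakaryocyte and platelet markers was 568 to 943 CPM in young *Ythdf2* CTL and 1084 to 3339 CPM in young *Ythdf2* CKO mice, and 444 to 660 CPM in aged *Ythdf2* CTL and 600 to 2167 CPM in aged *Ythdf2* CKO mice. None of the 8 was at 0 in any group, and Gp6 is not listed in the table. The summed level of 5 multipotent progenitor markers was 140 to 239 CPM in young *Ythdf2* CTL and 205 to 246 CPM in young *Ythdf2* CKO mice, and 81.2 to 286 CPM (median 139) in aged *Ythdf2* CTL and 20.7 to 101 CPM (median 57.0) in aged *Ythdf2* CKO mice. Without the mice labelled CKO 121 and CTL 124 the megakaryocyte and platelet sum was 444 to 660 CPM in aged *Ythdf2* CTL and 1838 to 2167 CPM in aged *Ythdf2* CKO mice, and the multipotent progenitor sum had medians of 83.4 and 40.0 CPM. Of 11 lymphoid markers 4 are in the table, and their sum was 79.9 to 89.1 CPM in young *Ythdf2* CTL and 92.8 to 155 CPM in young *Ythdf2* CKO mice, with *Cd79a* and *Il7r* at 0 counts in both. The part of these marker lists in the results below was not tested. More cells with a transcript and more of it per cell cannot be told apart in samples of pooled cells.

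The transcripts themselves were searched for the letters GGACT, a common form of the consensus at which m6A is placed, to show where the 10 mRNAs could carry the mark. Only the sense strand of the longest coding transcript of each gene in GENCODE M21 (GRCm38) was read, and methylation was not measured in these libraries. The study mapped m6A separately in c-Kit+ cells and reports the TNFR2 transcript as methylated, and that map was not used here. All 10 genes held the letters at least once, as did 92.4% of 12452 genes read in the same way. Within 100 bases of the first base of the stop codon, where m6A is known to be dense, they stood in 5 of the 10 genes (*Tnfrsf1a*, *Traf1*, *Traf2*, *Fadd* and *Birc2*) against 24.7% of all genes, which is a description and not a test. *Tnfrsf1a* had the densest letters of the 10, with 2.32 per kb against a median of 1.05 over all genes, and *Birc3* the sparsest with 0.344 per kb. The sites nearest to the stop codon are shown for 4 of the 10 genes as examples, with GGACT in capitals. Those of *Traf1* and *Birc2*, which lie within 100 bases, are not shown, and that of *Tradd* lies outside.
Tnfrsf1a (chr6:125362011-125362035, + strand, starting 29 bases after the first base of the stop codon, 3′ UTR): ttaggaagagGGACTtgaacttcaa
Fadd (chr7:144580483-144580507, - strand, starting 34 bases after it, 3′ UTR): gagtcactgtGGACTtgatcacacc
Traf2 (chr2:25519404-25519428, - strand, starting 6 bases before it, coding exon): ggacctaacaGGACTctagccaccc
Tradd (chr8:105258853-105258877, - strand, starting 120 bases after it, 3′ UTR): tccatctactGGACTtggagagcat

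The receptors were described first. In young mice *Tnfrsf1b* was at 45.3, 35.4, 48.9 and 44.7 CPM in the *Ythdf2* CTL mice and at 51.0, 69.8, 128.4 and 64.2 CPM in the *Ythdf2* CKO mice. The groups did not overlap, and 1 *Ythdf2* CKO mouse, number 3, stood far above the other 3. The log2 fold change was 0.85 ± 0.26 (SE), a 1.80-fold higher level, with p = 0.00535 and adjusted p = 0.375 in the edgeR quasi-likelihood test, so the difference did not pass the threshold of 0.05. Without *Ythdf2* CKO mouse 3 the log2 fold change was 0.50 (adjusted p = 0.464). The excess of that mouse was carried mostly by its library B, at 214 CPM, while its library A was at 86.0 CPM.

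In aged mice *Tnfrsf1b* was at 30.8, 40.4, 72.1 and 46.9 CPM in the *Ythdf2* CTL and at 43.9, 28.0, 72.4, 61.2 and 38.3 CPM in the *Ythdf2* CKO mice. The groups overlapped over nearly their whole range, with a log2 fold change of 0.044 ± 0.32 (adjusted p = 0.979) that turned to -0.073 without the mice labelled CKO 121 and CTL 124. The difference between the genotype effects at the 2 ages was -0.81 ± 0.44 on the log2 scale (p = 0.0756, adjusted p = 0.999), which did not pass the threshold. For *Tnfrsf1b* the SD of a single library within a mouse was 0.74 log2 units. The SD between mice of a group was 0.48, but for levels summed over libraries, so the 2 values cannot be compared directly. In aged *Ythdf2* CTL mouse 114, for example, library A was at 129.8 and library B at 18.5 CPM.

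*Tnfrsf1a* was at 46.0, 67.9, 69.3 and 37.9 CPM in young *Ythdf2* CTL mice and at 100.5, 44.8, 73.8 and 88.2 CPM in young *Ythdf2* CKO mice. The highest values were in *Ythdf2* CKO mice but the groups overlapped, and the log2 fold change of 0.48 ± 0.27 did not pass the test (adjusted p = 0.776). The aged groups overlapped as well, at 49.5 to 127 CPM in *Ythdf2* CTL and 73.0 to 130.2 CPM in *Ythdf2* CKO mice, with a log2 fold change of 0.24 ± 0.27 (adjusted p = 0.825). With a mouse left out this ranged from 0.033, without *Ythdf2* CTL mouse 65, to 0.49, without *Ythdf2* CTL mouse 114. The log2 ratio of *Tnfrsf1b* to *Tnfrsf1a*, with 1 added to each count, was -0.30 ± 0.52 (SD) in young *Ythdf2* CTL and 0.00047 ± 0.86 in young *Ythdf2* CKO mice, and -0.84 ± 0.25 in aged *Ythdf2* CTL and -1.09 ± 0.40 in aged *Ythdf2* CKO mice. The genotypes did not separate on this ratio, with p = 0.543 in young and 0.317 in aged mice in the two-sided exact permutation test and adjusted p = 0.543 over the 4 ratio tests.

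*Tradd*, the adaptor at the TNFR1 death domain, had the smallest p of the 10 genes in young mice. It was at 37.6, 29.5, 30.6 and 44.7 CPM in *Ythdf2* CTL and at 59.3, 71.8, 67.1 and 78.1 CPM in *Ythdf2* CKO mice. Every young *Ythdf2* CKO mouse was above every young *Ythdf2* CTL mouse, and the same held for single libraries, of which the 8 from *Ythdf2* CTL mice spanned 14.9 to 49.9 CPM and the 8 from *Ythdf2* CKO mice 52.3 to 78.9 CPM. This was a log2 fold change of 0.96 ± 0.21, a 1.95-fold higher level, with p = 0.000306, rank 32 of 11526 genes, and adjusted p = 0.101 in edgeR's quasi-likelihood test, which missed the threshold. With each young mouse left out in turn the log2 fold change stayed between 0.89 and 1.09, with adjusted p between 0.0877 and 0.331. The call depended on the test, since *Tradd* passed in the DESeq2 test over mice (adjusted p = 0.00382) but not over mice in edgeR with a Y-linked covariate (0.406). It also passed in the edgeR likelihood ratio test over libraries (0.00211) and in the quasi-likelihood test over libraries with the library letter as a block (0.0278), but these count the 2 libraries of a mouse as separate replicates, so their p-values are too small for a comparison of mice.

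**Figure D1:**
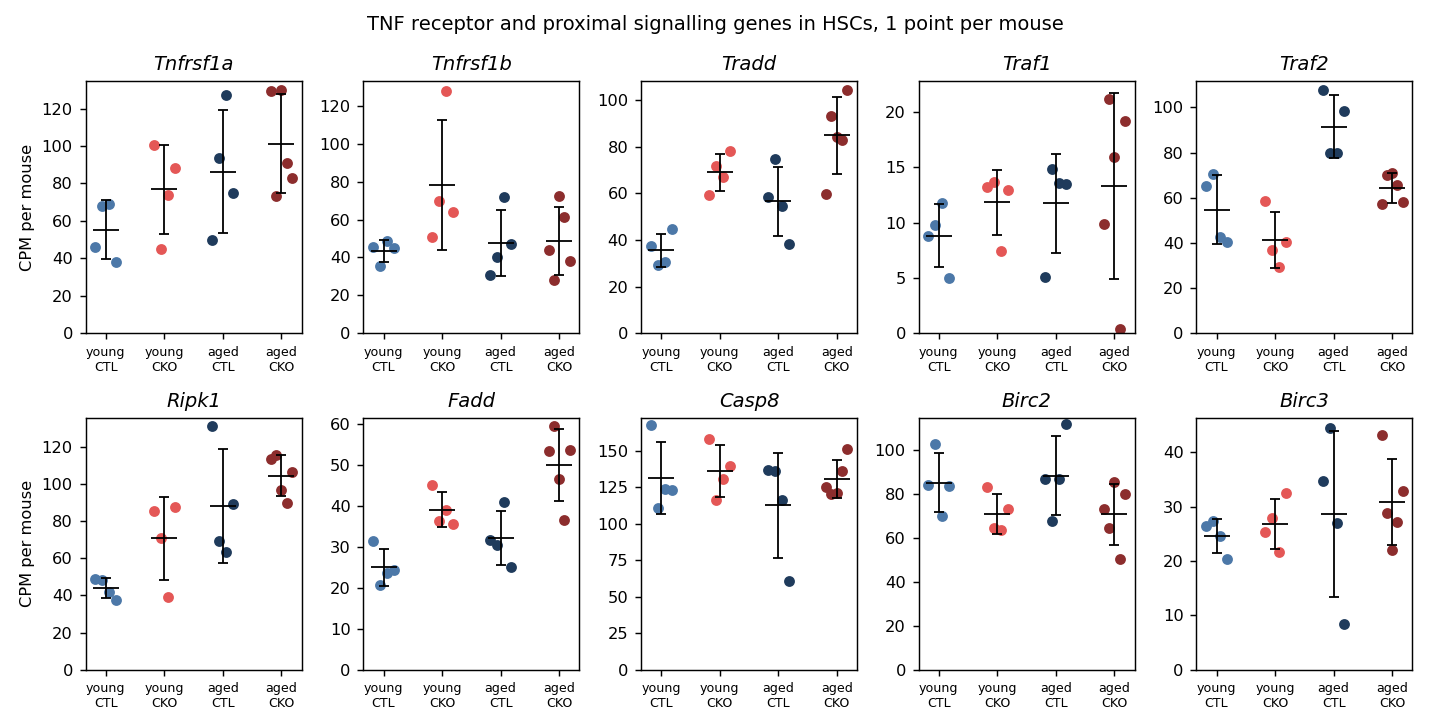
Level of each of the 10 genes in CPM per mouse (vertical axes, linear from 0) in young and aged *Ythdf2* CTL and CKO HSCs, 1 point per mouse, with the mean as a horizontal mark and the SD as a bar. *Tradd* in young *Ythdf2* CKO mice lies between 59.3 and 78.1 CPM, above the 29.5 to 44.7 CPM of young *Ythdf2* CTL mice, whereas the *Tnfrsf1b* groups are apart in young and mixed in aged mice.

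In aged mice *Tradd* was at 58.6, 74.7, 54.6 and 38.4 CPM in *Ythdf2* CTL and at 59.9, 93.1, 84.5, 82.8 and 104.5 CPM in *Ythdf2* CKO mice. Only the *Ythdf2* CKO mouse 78 fell within the *Ythdf2* CTL range. In log2 terms they differed by 0.60 ± 0.24 (p = 0.0251, adjusted p = 0.431), or 0.45 (adjusted p = 0.476) without the mice labelled CKO 121 and CTL 124. The genotype effects at the 2 ages differed by -0.36 ± 0.31 (adjusted p = 0.999), so no difference between ages was detected.

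*Ripk1*, the kinase that serves as the scaffold for ubiquitin chains and also as a cell death switch, was at 48.6, 48.1, 41.7 and 37.3 CPM in young *Ythdf2* CTL and at 85.4, 70.7, 39.0 and 87.7 CPM in young *Ythdf2* CKO mice. In 3 *Ythdf2* CKO mice it was above all *Ythdf2* CTL mice, and mouse 3, which had the highest *Tnfrsf1b*, had the lowest *Ripk1* of its group. The log2 fold change was 0.69 ± 0.25 (p = 0.013, adjusted p = 0.512), and without *Ythdf2* CKO mouse 3 it was 0.89 (adjusted p = 0.0877). Aged mice overlapped, at 130.9, 69.3, 63.3 and 89.1 CPM in *Ythdf2* CTL and 113, 116, 96.9, 89.8 and 107 CPM in *Ythdf2* CKO mice (log2 fold change 0.25 ± 0.22, adjusted p = 0.762). With a mouse left out this ranged from 0.11, without *Ythdf2* CTL mouse 114, to 0.49, without *Ythdf2* CTL mouse 65 (adjusted p = 0.289 in edgeR). *Ripk1* was higher in library B than in library A in 14 of the 16 mice with both libraries, which was so for 0.531% of the 7911 genes with a mean of at least 20 CPM, while the other 9 genes were higher in library B in 7 to 10 mice. The labels do not say what the letters stand for. Exons of *Ripk1* (chr13:34002363-34037147) overlap those of *Serpinb6a* on the opposite strand, and SMART-Seq2 does not keep the strand, so reads in the shared exons cannot be assigned with certainty.

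**Figure D2:**
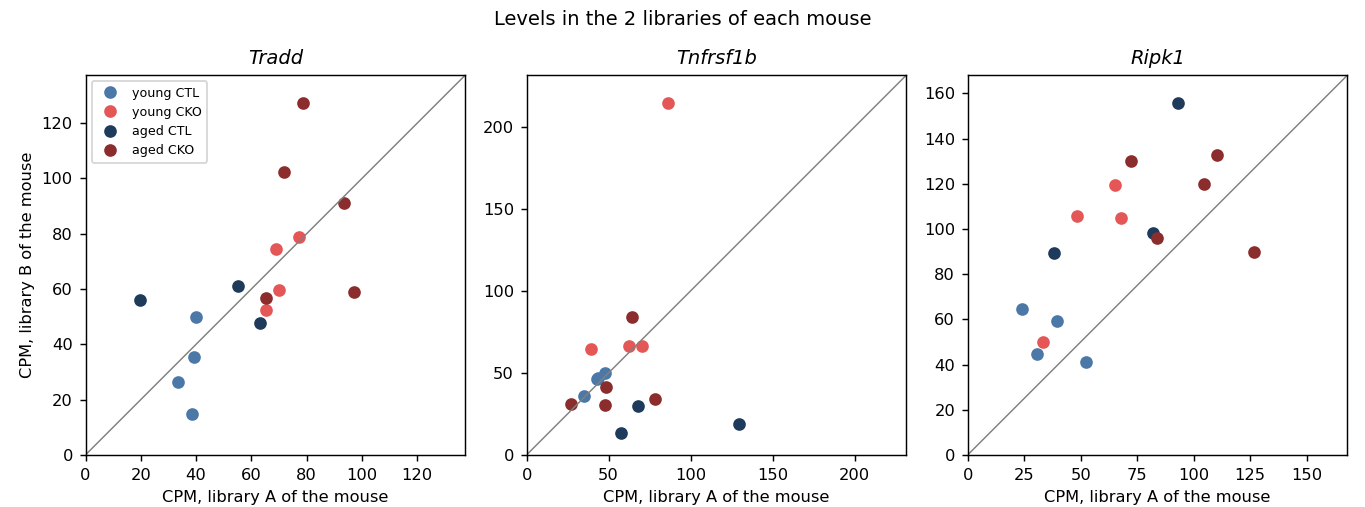
CPM of *Tradd*, *Tnfrsf1b* and *Ripk1* in library A (horizontal axis) against library B (vertical axis) of each of the 16 mice with both libraries, with the line of equal levels. *Tradd* keeps young *Ythdf2* CKO mice above young *Ythdf2* CTL mice in both libraries, *Tnfrsf1b* has 1 library at 214 CPM, and 14 of 16 mice lie above the line for *Ripk1*.

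For *Tnfrsf1b* and *Ripk1* the start of the gene was examined, since theirs were the only RefSeq promoters (GRCm38.p6, 250 bases before to 50 bases after the start) among 11 promoters of 9 of the 10 genes that held the letters GAAA, any 2 bases and GAAA again on either strand, a shape known from interferon response elements. This pattern was found in 3.44% of 32851 promoters of that length. The consensus for NF-κB was found in 0 of the 11 promoters and in 4.51% of all, so no match of it overlapped the pattern, and this says only that it is not in these windows. The bases from 100 before to 10 after the start are shown on the strand of the gene, with the pattern in capitals.
Tnfrsf1b (chr4:145246861-145246970, - strand): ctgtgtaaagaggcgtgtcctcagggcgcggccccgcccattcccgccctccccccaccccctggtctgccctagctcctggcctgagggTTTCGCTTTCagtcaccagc
Ripk1 (chr13:34002774-34002883, + strand): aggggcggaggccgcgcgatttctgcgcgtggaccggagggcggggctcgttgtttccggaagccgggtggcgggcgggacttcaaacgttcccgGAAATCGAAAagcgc
In both windows the pattern lies within 10 bases of the start. A match of letters does not show that a factor binds there.

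The TRAF proteins link the receptors to the ubiquitin ligases. *Traf2* was at 65.3, 70.7, 42.5 and 40.4 CPM in young *Ythdf2* CTL and 58.3, 36.9, 29.1 and 40.3 CPM in young *Ythdf2* CKO mice. These groups overlapped, and the log2 fold change of -0.41 ± 0.26 did not pass the test (adjusted p = 0.845), and it was -0.11 with the Y-linked level as a covariate. In aged mice *Traf2* was at 108, 79.6, 79.9 and 98.5 CPM in *Ythdf2* CTL and at 57.0, 69.9, 70.8, 65.4 and 58.2 CPM in *Ythdf2* CKO mice, and here the groups did not overlap. This gave a log2 fold change of -0.50 ± 0.18, with p = 0.0156 and adjusted p = 0.398. Without the mice labelled CKO 121 and CTL 124 it was -0.48 (adjusted p = 0.365).

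*Traf1*, an adaptor that pairs with TRAF2 and has no RING domain, had the lowest group mean of the 10 genes in every group, and was between 4.99 and 21.2 CPM in 16 mice. The mouse labelled CKO 121 held 3 counts (0.395 CPM). The 2 libraries of a mouse differed by up to 2.57 log2 units, and neither genotype difference passed the test, with a log2 fold change of 0.42 ± 0.41 in young (adjusted p = 0.911) and 0.20 ± 0.73 in aged mice (adjusted p = 0.956). The aged value was 0.59 (adjusted p = 0.704) without the mice labelled CKO 121 and CTL 124.

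*Fadd*, the adaptor that binds caspase-8, was at 31.5, 20.6, 23.5 and 24.3 CPM in young *Ythdf2* CTL and at 45.1, 36.4, 39.0 and 35.6 CPM in young *Ythdf2* CKO mice. The groups did not overlap, and the log2 fold change was 0.65 ± 0.23 (p = 0.0133, adjusted p = 0.512). The aged mice were at 31.6, 30.5, 41.0 and 25.1 CPM in *Ythdf2* CTL and at 53.3, 59.5, 46.5, 36.5 and 53.5 CPM in *Ythdf2* CKO mice, where only the mouse labelled CKO 121 fell within the *Ythdf2* CTL range. As in young mice, the log2 fold change was 0.65 ± 0.25 (p = 0.0215, adjusted p = 0.417), and it was 0.63 (adjusted p = 0.315) without the mice labelled CKO 121 and CTL 124. *Fadd* (chr7:144577318-144582463) lies opposite an annotated antisense gene, *Faddos*, which is not a row of the table. The 2 libraries of a mouse differed by up to 2.65 log2 units for *Fadd*.

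*Casp8*, the protease that starts death receptor apoptosis and also restrains RIPK1, was the most even of the 10 genes between the libraries of a mouse (SD of 0.19 log2 units). It was at 167, 111, 124 and 123 CPM in young *Ythdf2* CTL and 158, 116, 131 and 139.6 CPM in young *Ythdf2* CKO mice, with a log2 fold change of 0.057 ± 0.17 (adjusted p = 0.978). In aged mice it was at 61.0 CPM in the mouse labelled CTL 124 and between 116 and 151 CPM in the other 8 mice. The log2 fold change there was 0.22 ± 0.23 (adjusted p = 0.803), and it was -0.0045 without the mice labelled CKO 121 and CTL 124. No genotype difference of *Casp8* was detected at either age.

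*Birc2* and *Birc3* are neighboring paralogs on chromosome 9 (chr9:7818227-7837064 and chr9:7848699-7873186) that encode cIAP1 and cIAP2. *Birc2* was at 69.7 to 102 CPM in young *Ythdf2* CTL and 63.3 to 82.9 CPM in young *Ythdf2* CKO mice, with a log2 fold change of -0.26 ± 0.18 (adjusted p = 0.882). In aged mice its log2 fold change was -0.31 ± 0.21 (adjusted p = 0.653), and it was -0.095 without the mice labelled CKO 121 and CTL 124. *Birc3*, whose gene NF-κB is known to induce, was at 20.3 to 27.3 and 21.6 to 32.5 CPM in the young groups, with a log2 fold change of 0.13 ± 0.25 (adjusted p = 0.969). It was at 8.41 CPM in the mouse labelled CTL 124 and between 22 and 44.6 CPM in the other aged mice, and its log2 fold change of 0.11 ± 0.41 there (adjusted p = 0.955) turned to -0.15 without the mice labelled CKO 121 and CTL 124. The log2 ratio of *Birc3* to *Birc2* was -1.77 ± 0.24 (SD) in young *Ythdf2* CTL and -1.40 ± 0.26 in young *Ythdf2* CKO mice (two-sided exact permutation p = 0.143), and -1.82 ± 1.33 against -1.20 ± 0.46 in aged mice (exact permutation p = 0.444). The mouse labelled CTL 124 had an aged ratio of -3.71, and the difference of 0.62 turned to -0.084 without it and the mouse labelled CKO 121 (exact permutation p = 0.857). How reads that match both paralogs were counted is not given in the sources used here.

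**Figure D3:**
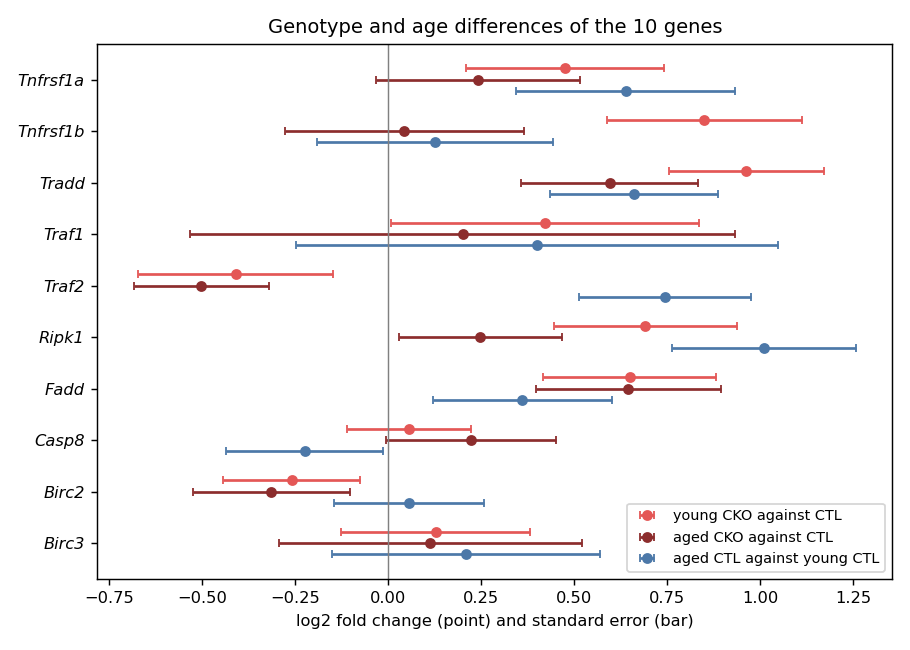
Log2 fold change of the 10 genes (points) with the standard error (bars) for young *Ythdf2* CKO against CTL, aged *Ythdf2* CKO against CTL, and aged against young *Ythdf2* CTL mice, from the quasi-likelihood fits. *Tradd* and *Fadd* are to the right of 0 and *Traf2* to the left at both ages in the genotype comparisons, and *Ripk1* has the highest value in the age comparison, 1.01.

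Counted over the 10 genes, 0 were called in young mice at an adjusted p below 0.05, against 0.174% of 11526 genes tested, of which 15 were higher and 5 lower in *Ythdf2* CKO mice. At an unadjusted p below 0.05 there were 4 (*Tnfrsf1b*, *Tradd*, *Ripk1* and *Fadd*), all higher in *Ythdf2* CKO mice, against 7.06% of all genes. In 3 genes (*Tnfrsf1b*, *Tradd* and *Fadd*) the *Ythdf2* CKO mice lay wholly above the *Ythdf2* CTL mice, against 2.68% of all genes, and in 0 genes wholly below, against 2.09%. The median log2 fold change was 0.45 against -0.00093 over all genes, and 8 of the 10 were positive against 49.9% of all genes. Since the 10 were chosen with earlier results known, these shares are a description and not a test. DESeq2 over mice called 1 of the 10 and the likelihood ratio test over libraries called 2, *Tradd* and *Tnfrsf1b* (adjusted p = 0.0465 for the latter), where these tests called 77 and 90 genes in all. The test over libraries takes 16 libraries of 8 mice as replicates, and over mice *Tnfrsf1b* had an adjusted p of 0.375 in edgeR and 0.135 in DESeq2. With the Y-linked covariate the log2 fold change was 0.79 for *Tnfrsf1a*, 0.78 for *Traf1*, 0.16 for *Casp8* and 0.20 for *Birc3*, and 0 of the 10 were called. That of *Tnfrsf1b* fell to 0.62, with an unadjusted p of 0.0664 in edgeR. *Tnfrsf1a* had an unadjusted p of 0.0116 there in edgeR.

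In aged mice 0 of the 10 genes were called, as were 0.0% of 11961 genes. At an unadjusted p below 0.05 there were 3, with *Tradd* and *Fadd* higher and *Traf2* lower in *Ythdf2* CKO mice, against 10.1% of all genes. Groups lay apart for 0 of the 10 genes upwards and for 1 downwards (*Traf2*), against 1.78% and 1.7% of all genes. The median log2 fold change was 0.21 against -0.0033 over all genes, and 8 of the 10 were positive against 49.7% of all genes. Without the mice labelled CKO 121 and CTL 124, *Fadd* and *Traf2* but not *Tradd* (p = 0.0704 in edgeR) had an unadjusted p below 0.05, against 11.6% of all genes. In that fit 5 of the 10 were positive, with a median of 0.10, against 5912 of 12005 genes and a median of -0.0086. DESeq2, the likelihood ratio test over libraries and the fit without the mice labelled CKO 121 and CTL 124 called 104, 420 and 40 genes, none of them among the 10. The genotype effect differed between the ages for 0 of the 10 genes and 0.0% of 12352 genes at an adjusted p below 0.05, and at an unadjusted p below 0.05 for 0 of the 10 against 4.76% of all genes.

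Age was compared within *Ythdf2* CTL mice. The descriptions of aged and young libraries carry different codes, whose meaning the labels do not give, so age and what the codes mark cannot be told apart. *Ripk1* was higher in aged *Ythdf2* CTL mice, at 63.3 to 130.9 CPM against 37.3 to 48.6 CPM, with a log2 fold change of 1.01 ± 0.25 (adjusted p = 0.0100 in edgeR). It passed with each mouse left out in turn, with adjusted p between 0.00396 and 0.043. *Traf2* was higher too, at 79.6 to 108 CPM against 40.4 to 70.7 CPM, with a log2 fold change of 0.74 ± 0.23 (adjusted p = 0.0352). Its call was lost without young *Ythdf2* CTL mouse 3 (adjusted p = 0.119) or 4 (0.127), and without the aged mouse 65 (0.0779) or the mouse labelled CTL 124 (0.0585). Without both the mice labelled CKO 121 and CTL 124, *Traf2* was at 0.71 (adjusted p = 0.0531) and *Ripk1* at 1.01 (adjusted p = 0.0117).

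These were 2 of the 10 genes called, against 14.8% of 12352 genes, and 4 of the 10 had an unadjusted p below 0.05, against 29.9% of all genes, so the share of the 10 was near that of all genes. The groups did not overlap for the same 2 genes, against 7.11% of all genes that were wholly higher in aged mice and 10% that were wholly lower. *Tradd* was at 38.4 to 74.7 CPM in aged against 29.5 to 44.7 CPM in young *Ythdf2* CTL mice, a log2 fold change of 0.66 ± 0.23 (adjusted p = 0.0527), and it passed without the mouse labelled CTL 124 (adjusted p = 0.0175) and without that mouse and the mouse labelled CKO 121 (0.0163). For *Tnfrsf1a* the age difference was 0.64 ± 0.29 log2 units (adjusted p = 0.148), which passed with the Y-linked level as a covariate (0.91, adjusted p = 0.0474), and more than 1 Y-linked count was found in 3 young but only 1 aged *Ythdf2* CTL mouse. With DESeq2 3 of the 10 genes were called, *Tradd* among them (adjusted p = 0.0417), while the calls over all genes rose from 1825 to 2376. *Tnfrsf1b* did not differ detectably by age (0.13 ± 0.32, adjusted p = 0.826). The comparisons of genotype and of age share the *Ythdf2* CTL mice, so their values are given side by side without a relation between them.

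Levels per length of exon put the 10 genes in order, where the length is the union of all annotated exons of a gene. It was 5101 bases for *Traf2* and 5009 for *Birc3*, whose transcripts read above have 3044 and 2909. For *Tnfrsf1b* both lengths were 3818 bases, so another choice of length could change the order. In young *Ythdf2* CTL mice *Casp8* led with 45.4 ± 8.57 CPM per kb (SD, n = 4), followed by *Tnfrsf1a* (21.3 ± 6.09), *Tradd* (19.1 ± 3.79) and *Birc2* (18.5 ± 2.93), which overlapped each other. *Tnfrsf1b* (11.4 ± 1.51), *Traf2* (10.7 ± 3.03), *Fadd* (6.39 ± 1.18), *Ripk1* (5.26 ± 0.65) and *Birc3* (4.92 ± 0.62) followed, each overlapping its neighbor in that order, and *Traf1* was last with 1.00 ± 0.32 CPM per kb. The ranges of neighbors were separate only between *Casp8* and *Tnfrsf1a*, between *Birc2* and *Tnfrsf1b* and between *Birc3* and *Traf1*. *Tradd* had the third highest mean in *Ythdf2* CTL mice of both ages, the second highest in young *Ythdf2* CKO mice (37.0 ± 4.25 CPM per kb) and the highest in aged *Ythdf2* CKO mice (45.5 ± 8.82), where it overlapped *Casp8* (45.3 ± 4.49). Per length *Tnfrsf1a* and *Tnfrsf1b* were at 29.6 ± 9.25 and 20.5 ± 8.97 CPM per kb in young *Ythdf2* CKO mice, which overlapped, at 33.3 ± 12.7 and 12.5 ± 4.62 in aged *Ythdf2* CTL and at 39.1 ± 10.3 and 12.8 ± 4.68 in aged *Ythdf2* CKO mice.

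**Figure D4:**
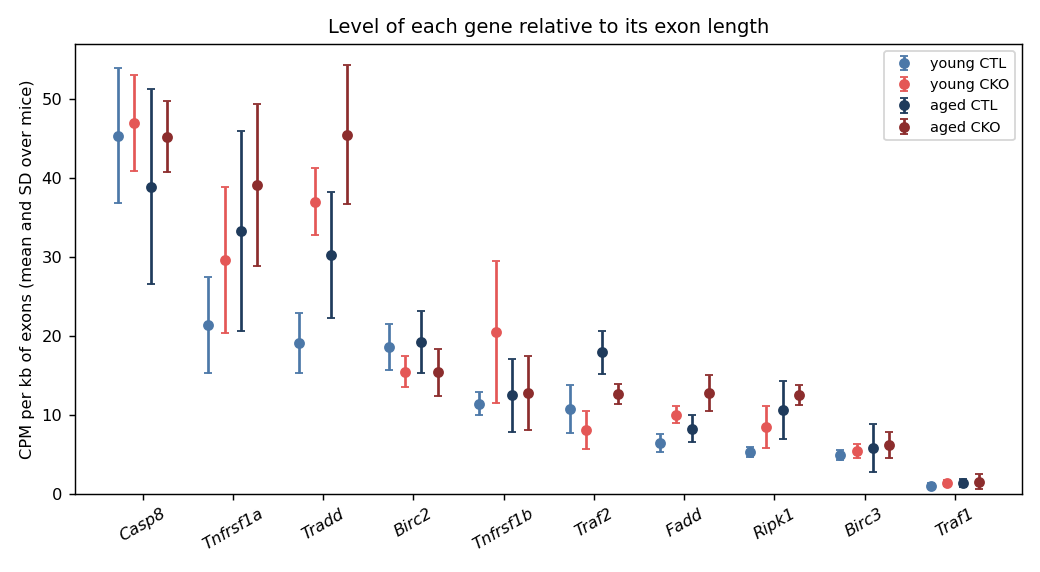
Mean level of each gene in CPM per kb of exons (vertical axis, linear from 0) with the SD over mice, for young and aged *Ythdf2* CTL and CKO groups, ordered by the young *Ythdf2* CTL mean. *Casp8* is highest in young *Ythdf2* CTL mice at 45.4 CPM per kb and *Traf1* lowest in all groups, between 1.00 and 1.51 CPM per kb.

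The pathway around the 10 genes was described from 7 lists of 96 genes, which were ligands and shedding enzymes, other TRAF adaptors, the linear ubiquitin ligase with its editing enzymes, TAK1 and IKK kinases, the death complex, other receptors of the family, and transcripts known to rise with TNF. With all mice, 0 genes of these lists were called for genotype at either age by edgeR's quasi-likelihood test. When the mice labelled CKO 121 and CTL 124 were left out, *Ltb* was called in aged mice, 1 of 82 tested against 0.333% of all genes. Of 6 ligand and shedding genes tested in young mice, 0 had an unadjusted p below 0.05 at either age with all mice. Without the mice labelled CKO 121 and CTL 124, 2 of 6 were lower in aged *Ythdf2* CKO mice at that p, against 11.6% of all genes. From this list 3 genes are described here although they were chosen after their values were seen. The ligand gene *Tnf* had a median of 0.648 CPM in young *Ythdf2* CTL mice, with 1 mouse at 21.1 CPM (117 counts). It was between 0 and 2.19 CPM in young *Ythdf2* CKO and 0 and 0.263 CPM in aged *Ythdf2* CKO mice, and at 0 counts in all 4 aged *Ythdf2* CTL mice, which allows up to 0.315 to 1.24 CPM. *Ltb*, which encodes lymphotoxin-β, a ligand of another receptor, was between 184 and 412 CPM in young mice. In aged mice *Ltb* was between 206 and 441 CPM (median 373) in *Ythdf2* CTL and between 31.5 and 486 CPM (median 61.4) in *Ythdf2* CKO mice, which overlapped. The highest *Ltb* was in the mouse labelled CKO 121 (486 CPM) and the lowest of the *Ythdf2* CTL group in the mouse labelled CTL 124 (206 CPM). The other *Ythdf2* CKO mice were at 31.5 to 108 CPM and the other *Ythdf2* CTL mice at 360 to 441 CPM. The log2 fold change of -1.22 (adjusted p = 0.525) became -2.62 ± 0.31 (adjusted p = 0.00231) without both. The difference between the genotype effects at the 2 ages became -2.90 ± 0.40 (adjusted p = 0.00301) in edgeR, where it had an adjusted p of 0.999 with all mice. *Adam17*, the protease that sheds TNF and its receptors, was between 44.9 and 75.3 CPM in all 17 mice.

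Of the 16 transcripts known to rise with TNF that were tested in young mice, an unadjusted p below 0.05 was reached by 2 with a higher and 1 with a lower level in *Ythdf2* CKO mice, against 7.06% of all genes in either direction, and their median log2 fold change was 0.11. *Tnfaip8*, an apoptosis regulator, was at 228 to 275 CPM in young *Ythdf2* CTL and 359 to 377 CPM in young *Ythdf2* CKO mice, with no overlap and a log2 fold change of 0.55 ± 0.13 (adjusted p = 0.120). Of the 17 tested in aged mice 4 reached it, all with a higher level, against 10.1% of all genes, with a median of 0.12, and for *Junb*, an AP-1 transcription factor, the log2 difference was 0.99 ± 0.32 (adjusted p = 0.361). The chemokine *Ccl2* stayed at 0 to 1.05 CPM in aged *Ythdf2* CTL and 1.36 to 5.13 CPM in aged *Ythdf2* CKO mice (adjusted p = 0.398).

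In the death complex list 2 of 12 genes had a positive log2 fold change in young mice (median -0.22), against 49.9% of all genes (median -0.00093), and 0 had an unadjusted p below 0.05. In aged mice 8 of the 12 were positive (median 0.075 against -0.0033 over all genes), and 1 was lower at an unadjusted p below 0.05. The 12 had 6 positive values and a median of -0.0051 without the mice labelled CKO 121 and CTL 124. *Bak1*, a pore-forming protein of the mitochondrial membrane, was 12.7 ± 0.22 CPM (SD, n = 4) in young *Ythdf2* CTL and 10.1 ± 2.37 CPM in young *Ythdf2* CKO mice, which did not overlap (adjusted p = 0.925). *Cflar*, the catalytically dead relative of caspase-8 that blocks it, was at 22.9 to 45.9 CPM in all young mice. In aged mice it was at 47.0 to 128 CPM in *Ythdf2* CTL and 25.5 to 48.3 CPM in *Ythdf2* CKO mice, with a log2 fold change of -1.07 ± 0.30 (p = 0.00319, adjusted p = 0.315), and between aged and young *Ythdf2* CTL mice the log2 fold change was 1.17 ± 0.30 (adjusted p = 0.0128).

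Of the other TNF receptors, 3 of 14 tested were higher in young *Ythdf2* CKO mice at an unadjusted p below 0.05, against 7.06% of all genes in either direction. *Eda2r*, the receptor of ectodysplasin A2, was at 0 to 2.41 CPM in young *Ythdf2* CTL and 4.57 to 12.8 CPM in young *Ythdf2* CKO mice (adjusted p = 0.284). *Tnfrsf18*, which encodes GITR, was in aged mice at 97.6 to 149 CPM in *Ythdf2* CTL and 54.8 to 95.2 CPM in *Ythdf2* CKO mice, with a log2 fold change of -0.76 ± 0.21 (adjusted p = 0.312). *Traf3ip2*, which encodes the adaptor of the IL-17 receptor, was 3.41 ± 2.27 CPM (SD, n = 4) in young *Ythdf2* CTL and 12.0 ± 3.87 CPM in young *Ythdf2* CKO mice, without overlap (adjusted p = 0.459). In aged mice it was 14.9 ± 17.0 CPM in *Ythdf2* CTL (n = 4) and 4.82 ± 4.47 CPM in *Ythdf2* CKO mice (n = 5). This was a log2 fold change of -1.61 ± 1.11 (adjusted p = 0.665), or -2.48 (adjusted p = 0.278) without the mice labelled CKO 121 and CTL 124. The genotype effects differed between the ages by -3.42 ± 1.40 (p = 0.0229, adjusted p = 0.999) in edgeR, or by -4.28 ± 1.11 (adjusted p = 0.229) without those mice. *Rbck1*, which encodes HOIL-1 of the linear ubiquitin ligase, was in aged mice at 110 to 186 CPM in *Ythdf2* CTL and 211 to 262 CPM in *Ythdf2* CKO mice, with a log2 fold change of 0.65 ± 0.18 (adjusted p = 0.321). Among the 11 genes of the linear ubiquitin ligase and its editing enzymes, 0 had an unadjusted p below 0.05 in young mice, and 2 were higher and 2 lower in aged *Ythdf2* CKO mice, against 10.1% of all genes. These became 1 higher and 0 lower, against 11.6%, without the mice labelled CKO 121 and CTL 124. Among 7 other TRAF adaptors, 2 were higher in young *Ythdf2* CKO mice at that p, against 7.06% of all genes. In aged mice 0 of the 7 reached it, against 10.1%, and 1 (*Traf3ip2*, lower) without the mice labelled CKO 121 and CTL 124, against 11.6%. The 12 TAK1 and IKK kinases had 0 genes with an unadjusted p below 0.05 at either age.

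Between aged and young *Ythdf2* CTL mice 8 of the 85 tested genes of the lists were called, a share of 9.41% against 14.8% of all genes. Beside *Cflar*, those higher in aged mice were *Sdc4* (log2 fold change 2.80 ± 0.58, adjusted p = 0.00406), *Traf4* (1.39 ± 0.43, adjusted p = 0.0347), *Traf7* (1.04 ± 0.21, adjusted p = 0.0036), *Junb* (0.99 ± 0.32, adjusted p = 0.0423), *Tnip1* (0.85 ± 0.28, adjusted p = 0.0462) and *Rbck1* (0.68 ± 0.19, adjusted p = 0.0239). *Tank*, a TRAF-binding inhibitor of NF-κB signaling, was lower, with a log2 fold change of -0.93 ± 0.31 (adjusted p = 0.0448). Without the mice labelled CKO 121 and CTL 124, 15 of the 85 were called, these 8 among them, a share of 17.6% against 17.6% of all genes.

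The genes most like each receptor over the 17 mice were found from log2 CPM with the mean of each age subtracted, among 7911 genes with a mean of at least 20 CPM. For *Tnfrsf1b* these were *Taok3* (Pearson r = 0.83), *Zfp668* (0.79), *Zbp1* (0.75), *Il17ra* (0.75) and *Zfp871* (0.75). With a mouse left out their lowest r were 0.80, 0.70, 0.61, 0.65 and 0.60. For all but *Taok3* that mouse was young *Ythdf2* CKO mouse 3. For *Tnfrsf1a* the genes were *Gzf1* (0.79), *Zbtb45* (0.78), *Zfp36l1* (0.74), *Pnpla2* (0.73) and *Pbxip1* (0.73). Their lowest r with a mouse left out were 0.71, 0.71, 0.67, 0.67 and 0.63. Among the 9 of the 10 genes that reached this mean, all but *Traf1*, *Casp8* and *Birc3* were the most alike over all mice (r = 0.81), but this rested on the mouse labelled CTL 124, which had the lowest level of both, and r was 0.35 without it. *Tradd* and *Fadd* followed (0.75, and 0.67 to 0.81 with a mouse left out), then *Traf2* and *Birc2* (0.67, and 0.59 to 0.74), and *Tradd* was opposed to *Birc2* and to *Traf2* to the same degree (-0.55 for both, and -0.66 to -0.43 and -0.63 to -0.46 with a mouse left out). These values are a description of 17 mice, whose points share the genotype, the sex and the depth of each mouse, since only the mean of each age was subtracted.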

How the data were processed

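RNA of sorted HSCs was sequenced from 17 mice. Per the labels and the methods of the study, the authors aligned reads to GRCm38 (mm10) using HISAT2, and Rsubread was used to count them, with versions not given in the sources used here. The deposited values are raw counts for 13108 gene rows and 34 libraries. Of these rows, 20 carry a date in place of a name and 1 has no count. How genes were selected for the table and how reads shared by paralogs were counted are not given in the sources used here. The 33 libraries used were summed to 17 mice, and the mouse was the replicate.

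Genes that passed edgeR's filterByExpr (10 counts, total 15) were normalized by TMM and compared with the quasi-likelihood F test of edgeR 4.0.16 under R 4.3.3. p-values were adjusted by Benjamini-Hochberg over all genes, with a threshold of 0.05. Young and aged mice had separate fits, and age and the difference of genotype effects came from a fit of all 17 mice. A standard error is the size of the effect over the root of F. The fit was tested on simulated data. Alternatives were DESeq2 1.42.0, its size factors, no filter or 30 counts, the likelihood ratio test over libraries, blocks for the library letter or the mouse number, the Y-linked level as a covariate, a common fit, each mouse left out, and the mice labelled CKO 121 and CTL 124 left out. Exon lengths and transcripts are from GENCODE M21, in which 13070 row names were found, and promoters from RefSeq.

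The 10 genes, the lists and the tests were chosen with earlier results of these data known. Named from the lists were genes called in any of the 4 comparisons and, per list and genotype comparison, up to 2 genes with the smallest unadjusted p among those whose groups did not overlap.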

Additional observations from a re-analysis of the deposited data

Results flagged for a closer look

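Of 48 groups of mice, taken over the 10 genes and the pair of ratios, 2 held a mouse that stood far from the rest by Dixon's criterion, and chance alone gives about 2.4 in 48. Both were levels of *Traf1*, the lowest of the 10 genes. Young *Ythdf2* CKO mouse 3 was at 7.46 CPM, below the nearest mouse at 12.9 CPM, and aged *Ythdf2* CTL mouse 65 was at 5.03 CPM, below the nearest mouse at 13.5 CPM. In young *Ythdf2* CKO mouse 3 library A was at 2.80 and library B at 17.1 CPM.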

How the results depend on the processing

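In young mice the 20 calls over all genes became 77 with DESeq2, 90 with the likelihood ratio test over libraries, 50 with the library letter as a replicate block, 10 with the Y-linked covariate and 1 with all mice in one fit, and between 0 and 18 with a mouse left out. The 0 calls among the 10 genes became 1, 2 and 1 under the first 3 of these and remained 0 under the other 6 alternatives and with each mouse left out. In aged mice the 0 calls over all genes became 104 with DESeq2, 420 with the likelihood ratio test over libraries, 5 with all mice in one fit, 40 with the library letter as a replicate block and 40 without the mice labelled CKO 121 and CTL 124, and between 0 and 16 with a mouse left out (16 without the mouse labelled CKO 121), with 0 of the 10 genes called in each. For the difference of genotype effects between ages, the 0 calls became 15 without the mice labelled CKO 121 and CTL 124. They were between 0 and 2 with a mouse left out. For age in *Ythdf2* CTL mice there were between 896 (without young *Ythdf2* CTL mouse 4) and 2048 calls with a mouse left out, between 1 and 2 of them among the 10 genes, against 3 with DESeq2 and 3 with the Y-linked covariate, which called 2376 and 1776 genes in all, where the main test called 1825. Chosen after seeing the data, the pathway lists were also tested without the mice labelled CKO 121 and CTL 124. This moved their calls from 0 to 1 in aged mice (*Ltb*) and from 0 to 1 for the difference of genotype effects between ages. For age in *Ythdf2* CTL mice it moved them from 8 to 15.

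Changes of sign occurred only in differences that had not passed their test. In aged mice the log2 fold change of *Tnfrsf1b* became -0.054 in the likelihood ratio test over libraries and ranged from -0.15 to 0.31 with a mouse left out. Without the mice labelled CKO 121 and CTL 124 it was -0.073 for *Tnfrsf1b*, -0.0045 for *Casp8*, -0.15 for *Birc3* and -0.22 for *Bak1*, and the difference in the log2 ratio of *Birc3* to *Birc2* was -0.084. With a mouse left out, *Casp8* ranged from -0.022 to 0.19 in young mice, and in aged mice *Traf1* ranged from -0.067 to 0.51, *Birc3* from -0.20 to 0.39 and the ratio of *Birc3* to *Birc2* from -0.0061 to 1.03. For age, *Tnfrsf1b* was -0.045 with the Y-linked covariate and *Birc2* -0.076 without the mouse labelled CTL 124 and the mouse labelled CKO 121, and with a mouse left out *Tnfrsf1b* ranged from -0.15 to 0.29, *Birc2* from -0.091 to 0.16 and *Birc3* from -0.080 to 0.50. The causes were not tested.

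Same-numbered young mice of the 2 genotypes are different animals, and their deviations were correlated at -0.043 to 0.049, so no strong shared deviation was seen. The study used littermate controls, but the labels do not give litters, so whether the numbers pair mice was not settled. With the mouse number as a replicate block 14 genes and 0 of the 10 were called. The 100 cells per library and the spread between libraries of a mouse limit how small a difference could be detected.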
